A study of Mus musculus with 6 samples.

Results

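Homologous recombination repairs broken DNA by copying an intact sister sequence, and the Fanconi anemia pathway unhooks the DNA strands that crosslinks tie together and hands the resulting break to recombination. The 34 genes described here encode the core of both pathways, from the proteins that trim the broken ends to those that guide the search for the intact copy and cut the joined strands. They were chosen by name from what is known of the pathways, at a time when earlier results of these data were known. All 34 had a row among the 56748 genes of the deposited table. Both pathways are known for guarding blood-forming stem cells: inherited loss of a Fanconi gene causes bone marrow failure in people.

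The data are ribosome footprints, the mRNA fragments left under ribosomes when a nuclease digests the rest, read in Lin-c-Kit+ cells (cells that lack lineage markers and carry the Kit receptor, labelled as hematopoietic stem cells) of mice 12 days after irradiation with 4.5 Gy. A total of 3 libraries came from Mov10 knockout mice (genotype Mov10 KO) and 3 from WT mice, and both genotypes had been irradiated. Mov10 encodes an RNA helicase of silencing and decay. The sources used here do not say how Mov10 was deleted, how old the mice were, whether animals were pooled, or whether the 3 libraries of a genotype came from separate animals, so the spread behind each p-value could be technical.

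The knockout libraries held 1118345 to 1352517 reads and the WT libraries 2260348 to 2499634, so depth and genotype cannot be told apart. Mov10 itself had 51.0, 89.0 and 46.3 normalized reads in the knockout libraries, against 110.4, 106 and 104 in the WT libraries (log2 fold change -0.84, SE 0.27, adjusted p = 0.0598). Reads on Mov10 therefore remained in every library labelled as knockout, and the table does not show on which part of the gene they lie. Kit, the receptor that defines the gate, had 1124, 1157 and 1085 in the knockout libraries and 1115, 1083 and 1100.5 in the WT libraries. Normalized reads summed to 1808906 to 1820269 in the knockout and 1534003 to 1562757 in WT, so sums are also given as shares of that total. These totals, and the read totals above, leave out 5 genes whose values were not whole reads. The 12 stem and progenitor markers summed to 3706 to 4202 in the knockout and 3516 to 3582 in WT, and their shares overlapped, at 0.232, 0.231 and 0.204% in the knockout libraries and 0.228, 0.229 and 0.233% in the WT libraries. Markers of maturing cells were read as well. The 9 neutrophil markers summed to 9209 to 9929.7 in the knockout and 10629 to 11771 in WT. Of these 9 markers 4 were called higher and 4 lower, where 10.3% and 10.9% of all tested genes were. The shares of the neutrophil markers were 0.508 to 0.549% in the knockout and 0.693 to 0.753% in WT. The sum of 8 erythroid markers came to 3735 to 3807 in the knockout and 2268 to 2277 in WT (shares 0.206 to 0.209% and 0.145 to 0.148%). For 8 B cell markers the sum was 1923 to 2066 in the knockout and 990.1 to 1030.3 in WT (shares 0.106 to 0.114% and 0.0643 to 0.0659%). For 7 eosinophil, basophil and mast cell markers it was 19389 to 21359 in the knockout and 12841 to 15896 in WT (shares 1.07 to 1.17% and 0.837 to 1.02%). The shares of monocyte and macrophage markers and of megakaryocyte markers overlapped between the genotypes. Those of 7 T and NK cell markers were 0.0132 to 0.0149% in the knockout and 0.0200 to 0.0238% in WT. Called higher were 5 of the 8 erythroid, 5 of the 8 B cell and 4 of the 7 eosinophil, basophil and mast cell markers, and 0 of these lower. So were 1 of the 12 stem and progenitor markers and 1 megakaryocyte marker, while 1 of the 7 T and NK cell markers was called lower. The part of other cells in the results below was not tested. Of all 61 cell type markers only Gp1bb, of megakaryocytes, was at 0 in all 6 libraries. In such bulk samples fewer cells of a type and less RNA per cell cannot be told apart, and a footprint count rises with the level of a transcript as well as with its translation. Levels of mRNA were not analysed here.

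All levels below are normalized reads, the authors' read counts per gene divided by a size factor per library, and a fold change is knockout over WT. Each gene was tested with limma on log2(value + 1) in a fit over 17114 genes, and was called where the Benjamini-Hochberg adjusted p was under 0.05. All 34 passed the low-level filter, which asked for an average of 1 normalized read, with means over the 6 libraries from 3.73 for Rad51c to 725 for Brca1. Of the 34 genes, 5 were higher in the knockout (14.7%), against 10.3% of all tested genes. They were Brca1, Rad50, Polq, Fancl and Fancf. The share called higher differed by level. At a mean of 200 or more, 3 of the 11 genes were higher (27.3%), against 39.2% of all tested genes that abundant. From 100 to 200 it was 0 of 4, against 18.6%, and under 100 it was 2 of 19 (10.5%), against 4.48%. These ranges are wide, and levels within them are not matched. In the other direction 1 gene, Rad51c, was lower (2.94%), against 10.9% of all tested genes. With library totals 2 were higher and 6 lower, and with thinning to equal depth, which also makes the totals equal, 2 and 5. With DESeq2 5 were higher and 4 lower, and with upper-quartile scaling 9 and 1. By the authors' scaling -0.16, the median log2 fold change of the 34 genes, lies beside -0.17, that of all tested genes. Both medians were above 0, at 0.03 for the 34 genes and 0.01 for all, with upper-quartile scaling, and both were below 0 with the authors' scaling, TMM scaling and library totals.

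In 9 of the 34 genes (26.5%) every knockout library lay above every WT library, against 16.9% of all tested genes, and in 10 (29.4%) every knockout library lay below, against 22.9%. In the remaining 15 the genotypes overlapped. The authors' deposited table gives an adjusted p under 0.05 to the same 5 higher genes, where 6.58% of its genes with a p are higher, and to 4 lower genes, Xrcc2, Fanca, Fancc and Nbn, where 5.20% are lower. Its adjusted p are 0.0276 for Xrcc2, 0.0288 for Fanca, 0.0348 for Fancc and 0.0421 for Nbn.

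**Figure D1:**
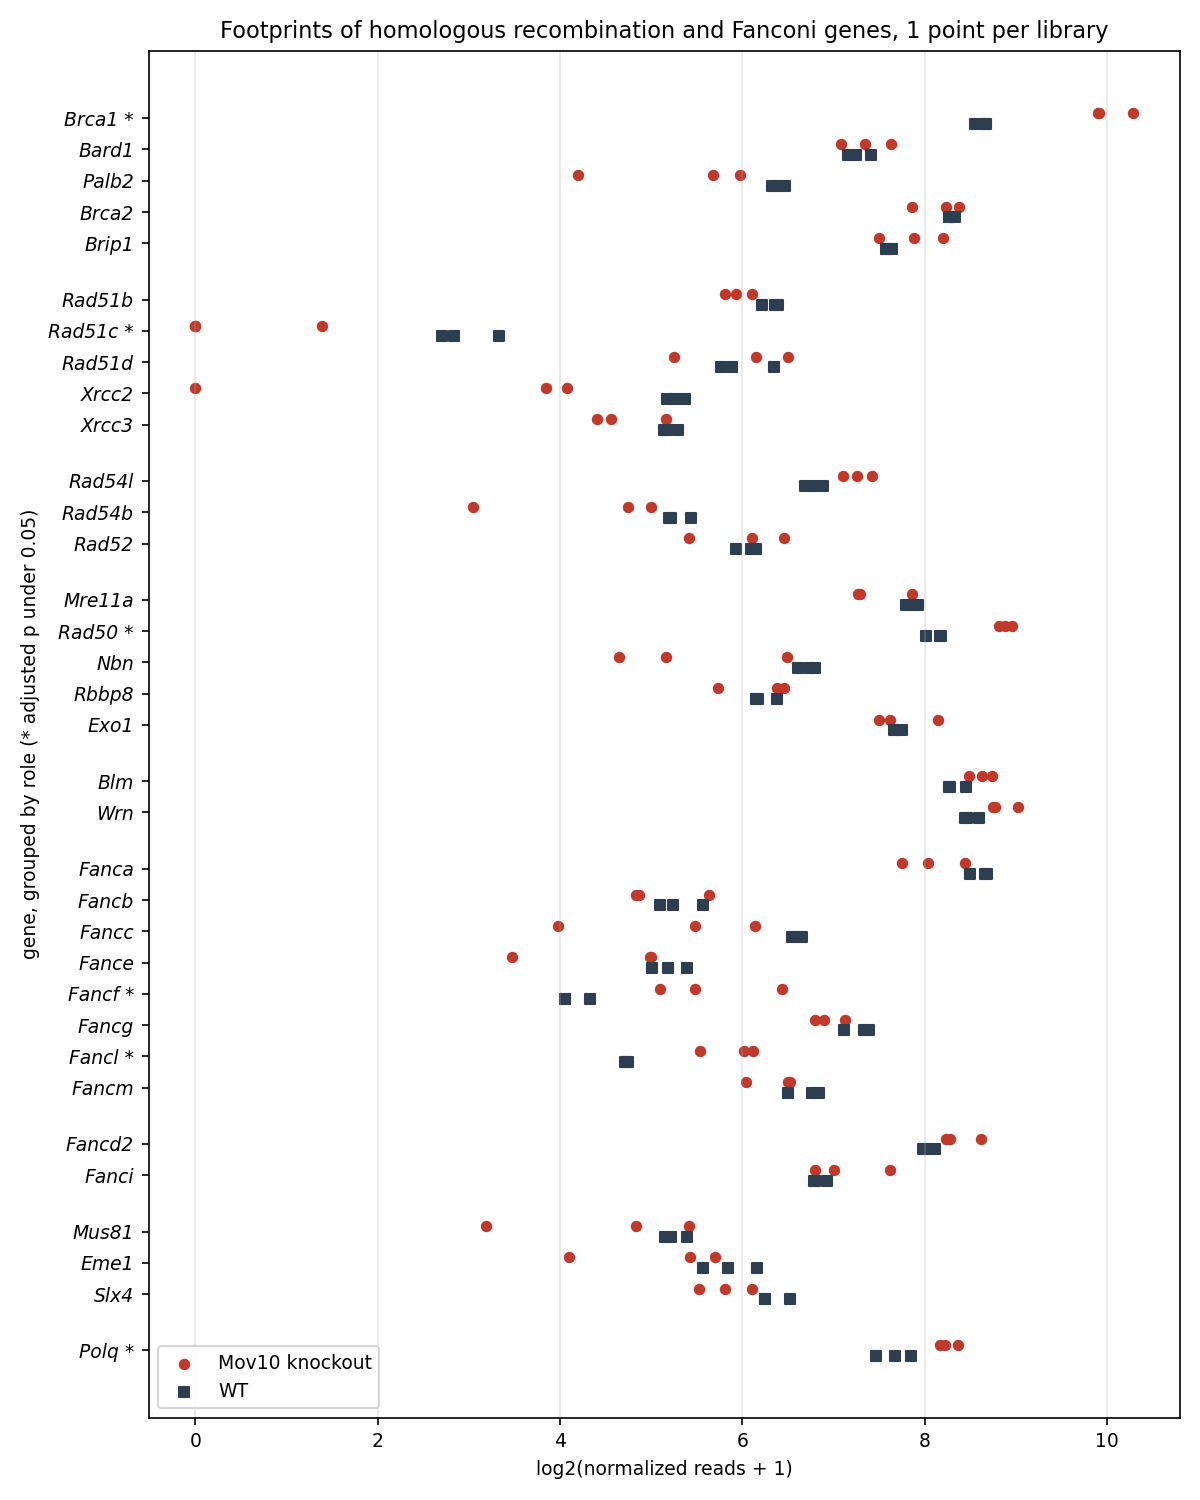
Level of each of the 34 genes, as log2(normalized reads + 1), with 1 point for each of the 3 Mov10 knockout libraries (circles, upper row of each gene) and the 3 WT libraries (squares, lower row). An asterisk marks the 6 genes called, and the knockout circles scatter more widely than the WT squares in most genes.

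Brca1 and its direct partners form the recruiting axis of recombination. BRCA1 is a ubiquitin ligase that acts as a heterodimer with BARD1, PALB2 links it to BRCA2, and BRCA2 acts on the single-stranded DNA of the resected end. Brca1 (chr11:101379590-101442781, GRCm39) had 1246, 954 and 961 normalized reads in the knockout libraries, against 375, 407 and 407 in the WT libraries. The lowest knockout library lay far above the highest WT library. Brca1 rose 2.66-fold in the knockout (log2 fold change 1.40, SE 0.12, adjusted p = 0.000122), and it was called under all 19 alternatives.

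Bard1, the obligate partner of Brca1, had 134, 162 and 197 normalized reads in the knockout libraries and 142, 150.4 and 169 in the WT libraries, and the genotypes overlapped (log2 fold change 0.08, SE 0.18, adjusted p = 0.779). Brca2 had 333, 231 and 299.5 in the knockout and 307, 320.3 and 307 in WT, again with overlap (log2 fold change -0.13, SE 0.15, adjusted p = 0.572). Brip1, the helicase that binds the BRCT repeats of BRCA1 and is itself a Fanconi protein, had 235, 179.5 and 292 in the knockout and 190.2, 198 and 191 in WT. In Brip1 knockout replicate 2 lay below all WT libraries and the other knockout libraries above them (log2 fold change 0.26, SE 0.18, adjusted p = 0.358). Palb2 went the other way from Brca1, with 61.7, 50.1 and 17.4 normalized reads in the knockout libraries, all below the 79.2, 82.2 and 87.2 of the WT libraries. Its difference did not pass the threshold (log2 fold change -1.11, SE 0.44, adjusted p = 0.110), though it did without knockout replicate 1 (adjusted p = 0.0475).

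Rad51b, Rad51c, Rad51d, Xrcc2 and Xrcc3 encode related proteins that assemble into small complexes of recombination, and all 5 had a log2 fold change below 0, though that of Rad51d was above 0 with upper-quartile scaling, cyclic loess, edgeR and DESeq2, and without knockout replicate 2 (0.32) or WT replicate 3 (0.14). Rad51c (chr11:87267471-87295780, GRCm39), a subunit of both complexes, was the only one called lower. Its values rest on few reads: 0, 1 and 0 reads in the knockout libraries, against 14, 9 and 9 in the WT libraries. That is 1 read in 3 knockout libraries and 32 reads in 3 WT libraries. After scaling, the ratio of knockout to WT was 0.0705, with an exact 95% interval of 0.00173 to 0.422 that covers counting error only. The fitted log2 fold change of Rad51c, -2.50, depends on the pseudocount, and was -4.73 with a pseudocount of 0.1, -3.72 with DESeq2 and -1.96 with cyclic loess. The fit gave an adjusted p of 0.0319 for Rad51c, which became 0.119, 0.102 and 0.107 without WT replicates 1, 2 and 3 in turn.

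Xrcc2, which acts with RAD51B, RAD51C and RAD51D in one of these complexes, had 13.4, 0 and 15.9 normalized reads in the knockout libraries, against 35.1, 40.5 and 37.5 in the WT libraries. Its 21 reads in the knockout and 175 in WT give a ratio of 0.271 after scaling, with an exact 95% interval of 0.163 to 0.427. Knockout replicate 2 had no read of Xrcc2 and was fitted at 0, where a reference floor of 3 reads would be 4.85 normalized reads. The difference of Xrcc2 did not pass (log2 fold change -2.63, SE 1.01, adjusted p = 0.102), but it did without that library, at -1.31 on the log2 scale (adjusted p = 0.0247). Rad51b had 55.0, 59.8 and 68.0 in the knockout, all below the 73.4, 81.0 and 83.1 of WT (log2 fold change -0.38, SE 0.21, adjusted p = 0.247). Rad51d and Xrcc3 each overlapped between the genotypes, with log2 fold changes of -0.03 (SE 0.35) and -0.50 (SE 0.35).

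Strand exchange and annealing depend on the motor proteins RAD54L and RAD54B, which act in the invasion of the intact duplex, and on RAD52, which anneals single strands. Rad54l had 137, 152 and 171 normalized reads in the knockout libraries, all above the 118, 102 and 109 of the WT libraries. It did not pass (log2 fold change 0.48, SE 0.16, adjusted p = 0.0713), and passed without knockout replicate 1 (adjusted p = 0.0355). Its relative Rad54b differed in the opposite direction, with 30.8, 25.9 and 7.24 in the knockout, all below the 35.7, 42.3 and 36.1 of WT (log2 fold change -1.02, SE 0.54, adjusted p = 0.223). Rad52 had means of 65.4 ± 22.7 in the knockout and 65.8 ± 5.21 in WT (SD, n = 3 each), and the genotypes overlapped.

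End resection starts with the MRN complex of MRE11, RAD50 and NBN, which holds the 2 broken ends, and goes on with CtIP, encoded by Rbbp8, and the exonuclease EXO1. Rad50 (chr11:53540346-53598146, GRCm39), the ATPase of MRN, had 498, 449.7 and 469 normalized reads in the knockout libraries, against 287, 258 and 288 in the WT libraries. The knockout libraries lay close together and all above the WT libraries. Rad50 rose 1.70-fold (log2 fold change 0.76, SE 0.10, adjusted p = 0.00165) and was called under all 19 alternatives.

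Neither partner of Rad50 in MRN was called. Mre11a, the nuclease, had 153, 155 and 232 in the knockout and 243, 221 and 234 in WT, where knockout replicate 3 lay among the WT libraries and the others below them. It did not pass (log2 fold change -0.39, SE 0.18, adjusted p = 0.163), and without knockout replicate 3 it was lower (adjusted p = 0.0133). Nbn, the subunit that brings the ATM kinase to the break, had 24.1, 89.0 and 34.7 in the knockout, all below the 110.4, 97.0 and 106 of WT. Knockout replicate 2 lay far above the other knockout libraries in Nbn, and the difference did not pass (log2 fold change -1.28, SE 0.43, adjusted p = 0.0660). Without that library the log2 fold change of Nbn was -1.81 (adjusted p = 0.00406), and 7 of the 19 alternatives called it lower. Exo1 and Rbbp8 overlapped between the genotypes, with log2 fold changes of 0.06 (SE 0.18) and -0.04 (SE 0.25).

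The RecQ helicases BLM and WRN unwind recombination intermediates, and loss of either causes a cancer-prone syndrome in people. Wrn had 519, 429 and 437 normalized reads in the knockout libraries, all above the 347, 351 and 386 of the WT libraries. It did not pass (log2 fold change 0.35, SE 0.11, adjusted p = 0.0583), and passed without knockout replicate 2 (adjusted p = 0.0456). Blm had 426, 357 and 394 in the knockout, all above the 308, 309 and 349.6 of WT, and did not pass (log2 fold change 0.28, SE 0.11, adjusted p = 0.115).

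Polq encodes DNA polymerase theta, which joins resected ends through short matching stretches and is a rival of recombination for the same ends. Polq (chr16:36832148-36915779, GRCm39) had 329.9, 298 and 287 normalized reads in the knockout libraries, against 204, 230.1 and 176 in the WT libraries. It rose to 305 ± 22.5 in the knockout, against 203 ± 26.8 in WT (SD, n = 3 each), with no overlap between the genotypes (log2 fold change 0.59, SE 0.14, adjusted p = 0.0197). The call was lost without WT replicate 1 (adjusted p = 0.0792) and without WT replicate 3 (adjusted p = 0.0992).

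The Fanconi core complex is a ubiquitin ligase of many subunits that marks FANCD2 and FANCI at a crosslink. Of its 8 subunits examined, 2 rose, and 6 did not pass and had log2 fold changes below 0, apart from Fancb with upper-quartile scaling and cyclic loess. With library totals limma called 0 of the 8 higher and 3 lower, and with TMM scaling limma called 2 higher and 1 lower, as did edgeR. Fancl, the catalytic RING subunit (chr11:26336135-26421876, GRCm39), had 68.4, 45.3 and 63.7 normalized reads in the knockout libraries, against 25.3, 25.2 and 25.9 in the WT libraries. It rose 2.32-fold, with every knockout library above the narrow range of WT (log2 fold change 1.16, SE 0.30, adjusted p = 0.0275). Fancf, an adaptor subunit encoded by a single coding exon (chr7:51510325-51512015, GRCm39), had 85.8, 43.7 and 33.3 in the knockout and 15.6, 19.0 and 15.7 in WT. It rose 3.24-fold (log2 fold change 1.53, SE 0.43, adjusted p = 0.0359), and knockout replicate 1 had a higher level than the other knockout libraries together. Both calls were lost without any 1 of the WT libraries. Without WT replicates 1, 2 and 3 in turn the adjusted p of Fancl was 0.0996, 0.107 and 0.102, and that of Fancf was 0.132, 0.110 and 0.135.

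Fanca, the scaffold subunit and the gene most often mutated in people with Fanconi anemia, had 347, 215 and 262 normalized reads in the knockout libraries, all below the 362, 403 and 412 of the WT libraries. It did not pass (log2 fold change -0.54, SE 0.17, adjusted p = 0.0578), but was called lower in 10 of the 19 alternatives, among them the leaving out of knockout replicate 1 (adjusted p = 0.0103) and edgeR on the recovered reads (adjusted p = 0.0437). Fancc, which joins FANCE and FANCF in a module of the core complex, had 14.8, 43.7 and 69.5 in the knockout, all below the 92.2, 99.4 and 96.8 of WT. Its knockout libraries differed widely among themselves, and it did not pass (log2 fold change -1.40, SE 0.49, adjusted p = 0.0763) but was called lower in 6 of the 19 alternatives, 1 of them without knockout replicate 3 (adjusted p = 0.0238). Fance, the third protein of that module, had 30.8, 30.7 and 10.1 in the knockout, all below the 40.9, 31.3 and 35.4 of WT (log2 fold change -0.71, SE 0.48, adjusted p = 0.337). Fancf thus lay above WT in every knockout library, and both of its partners in the module lay below, though neither was called. For Fance the gap between 30.8 in knockout replicate 1 and 31.3 in WT replicate 2 is less than 1 read, worth 1.34 normalized reads in that knockout library.

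The other core subunits overlapped between the genotypes. Fancg had means of 122 ± 14.9 normalized reads in the knockout and 155 ± 15.1 in WT, and Fancb, which lies on the X chromosome, 34.7 ± 12.0 in the knockout and 38.8 ± 6.82 in WT (SD, n = 3 each). Fancm, the translocase that anchors the complex to DNA, had 81.9 ± 14.9 in the knockout and 104 ± 12.6 in WT. None of Fancg, Fancb and Fancm passed, with adjusted p of 0.190, 0.737 and 0.295.

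FANCD2 and FANCI form the clamp that the core complex ubiquitinates. Fancd2 had 393, 299 and 308 normalized reads in the knockout libraries, all above the 257, 252 and 277 of the WT libraries, and did not pass (log2 fold change 0.34, SE 0.13, adjusted p = 0.114). Fanci had 127, 196 and 110.0 in the knockout and 109.7, 109.9 and 121 in WT, where only knockout replicate 2 stood well above WT (log2 fold change 0.30, SE 0.23, adjusted p = 0.387). The nucleases that cut crosslinks and joined strands had log2 fold changes below 0, and did not pass. Slx4, the scaffold that holds several nucleases, had 55.0, 67.9 and 44.9 in the knockout, all below the 75.3, 90.8 and 75.0 of WT (log2 fold change -0.53, SE 0.24, adjusted p = 0.162). Mus81 and Eme1, the subunits of a structure-specific nuclease, overlapped between the genotypes, with log2 fold changes of -0.78 (SE 0.56) and -0.78 (SE 0.44).

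**Figure D2:**
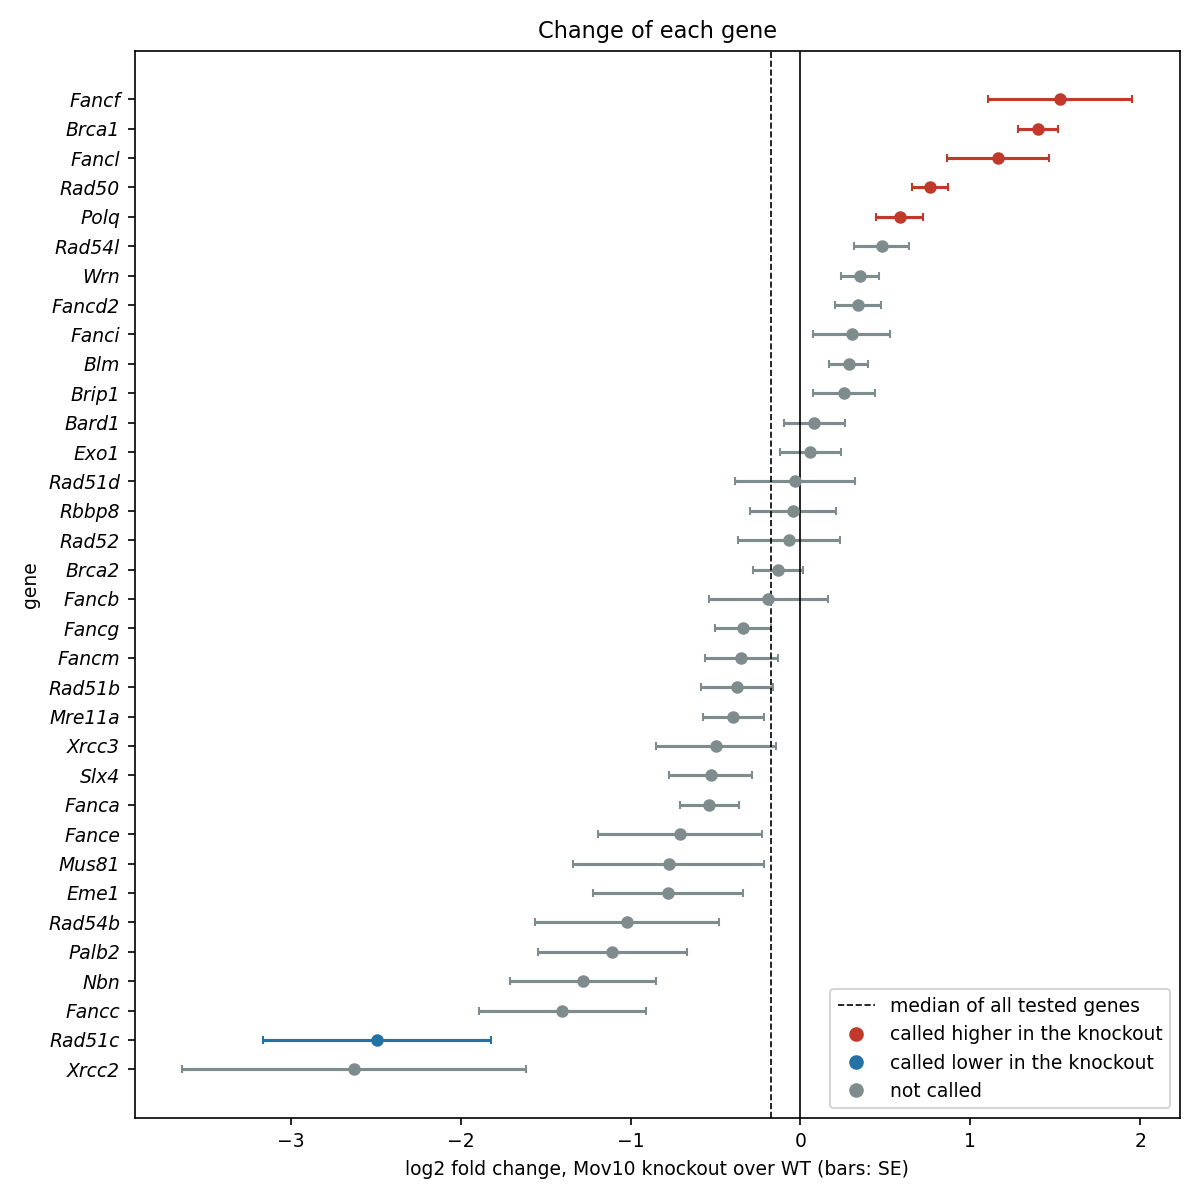
Log2 fold change of each gene, Mov10 knockout over WT, with bars of 1 SE, ordered from highest to lowest. The 5 genes called higher lie between 0.59 and 1.53, Rad51c at -2.50 is the 1 called lower, a value that depends on the pseudocount, and the dashed line marks the median of all tested genes at -0.17.

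Ratios between partners do not depend on the factor that scales a whole library, since both genes are read in the same library. They do change with cyclic loess, which scales by level and gave log2 fold changes of 1.06 for Brca1 and 0.05 for Bard1. The 6 pairs below, chosen after the values were seen, each join genes whose proteins bind each other. Their ratios restate the values of single genes given above, and other pairs of genes were not compared. The ratio of Brca1 to Bard1 reads was 9.29, 5.90 and 4.88 in the knockout libraries, against 2.65, 2.71 and 2.41 in the WT libraries. Brca1 thus outnumbered Bard1 by more in every knockout library than in any WT library. The ratio of Rad50 to Mre11a was 3.25, 2.90 and 2.02 in the knockout and 1.18, 1.17 and 1.23 in WT, and that of Rad50 to Nbn was 20.6, 5.05 and 13.5 in the knockout and 2.60, 2.66 and 2.73 in WT. Within MRN the 3 WT libraries agreed closely, and all knockout libraries lay above them in both ratios. The ratio of Brca2 to Palb2 was 5.39, 4.61 and 17.3 in the knockout and 3.88, 3.90 and 3.52 in WT, with the highest value in knockout replicate 3, where Palb2 was lowest. Fancd2 to Fanci, at 3.08, 1.53 and 2.80 in the knockout and 2.34, 2.30 and 2.29 in WT, and Eme1 to Mus81, at 1.23, 2.00 and 1.53 in the knockout and 1.64, 1.72 and 1.28 in WT, overlapped between the genotypes. On the log2 scale the mean ratio differed by 1.32 for Brca1 to Bard1, 1.16 for Rad50 to Mre11a, 2.07 for Rad50 to Nbn and 1.00 for Brca2 to Palb2. Each of these 4 gave an exact two-sided permutation p of 0.1, the smallest that 3 against 3 allows, and 0.15 after adjustment over the 6 pairs, so none could reach 0.05.

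**Figure D3:**
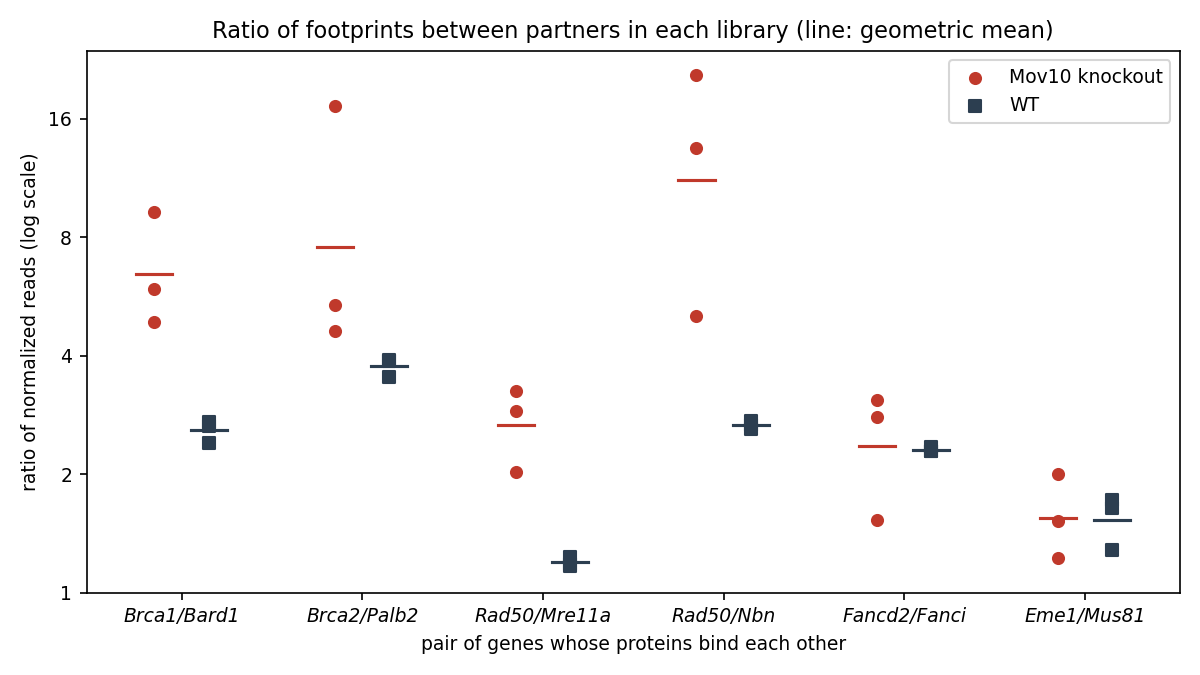
Ratio of normalized reads between partner genes in each library, on a log scale, with Mov10 knockout circles left of WT squares and a line at the geometric mean of each genotype. In 4 of the 6 pairs all knockout libraries lie above all WT libraries, and for Fancd2/Fanci and Eme1/Mus81 they overlap. The pairs were chosen after the values were seen, Rad50/Mre11a and Rad50/Nbn share a gene, and other pairs of genes were not compared.

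Levels between genes were compared per kilobase of the gene model, whose length includes untranslated parts. In the knockout Brca1 was highest, at 123 ± 19.5 normalized reads per kilobase, followed by Rad50 at 87.8 ± 4.48 and Wrn at 60.8 ± 6.57 (SD, n = 3). In WT the same 3 genes led, but close together, with Rad50 at 51.7 ± 3.14, Wrn at 47.6 ± 2.86, Brca1 at 46.5 ± 2.16 and Fanca next at 44.8 ± 3.05. Those neighbouring WT levels lay within about 1 or 2 SD of each other, so their order is not firm. At the low end stood Rad51c, with 0.123 ± 0.213 in the knockout and 1.58 ± 0.435 in WT. Next to it in the knockout was Xrcc2 at 1.87 ± 1.64, while in WT Rbbp8 at 5.96 ± 0.546 and Rad54b at 6.58 ± 0.643 came before Xrcc2 at 7.22 ± 0.523, within 1 or 2 SD of each other.

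The direction of the differences went with how often a gene was read. Of the 11 genes that averaged 200 or more normalized reads 8 had a log2 fold change above 0 (72.7%), as did 62.8% of all tested genes that abundant. Of the 19 genes with a mean under 100, 17 were below 0 (89.5%), against 61.2% of all tested genes in that range. Levels within that range are not matched: 10508 of the 17114 tested genes, but 33 of the 34 described here, had a mean of at least 10. Fancf and Fancl were the 2 exceptions, while upper-quartile scaling and cyclic loess each put 6 of the 19 above 0. The median log2 fold change was 0.28 for the abundant genes, beside 0.22 for all genes of that level, and -0.53 for the scarce ones, beside -0.32. The spread between libraries differed as well. In 31 of the 33 genes with a mean of at least 10 the SD was larger in the knockout, and the median coefficient of variation was 24.9% in the knockout and 7.15% in WT. Over all genes of that range it was 31.1% in the knockout and 10.2% in WT. The knockout libraries were also the shallower ones. Thinning to equal depth also replaces the authors' scaling by equal library totals. With all libraries thinned in this way, 17 of the 19 scarce genes were again below 0 and 7 of the 11 abundant ones above 0. The part of depth in the spread was not tested.

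**Figure D4:**
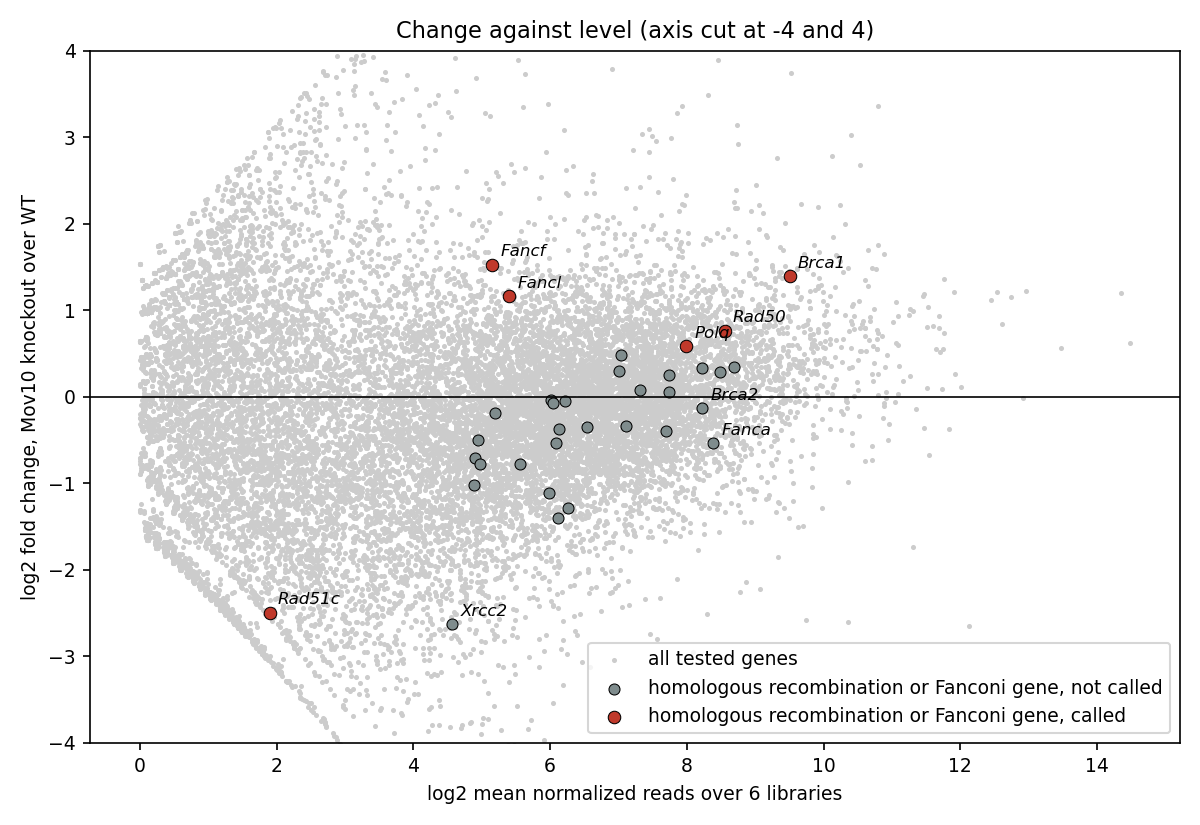
Log2 fold change, Mov10 knockout over WT, against the log2 mean of normalized reads over the 6 libraries, for all 17114 tested genes (grey, vertical axis cut at -4 and 4) and the 34 genes (large points, called genes in red). The scarce genes lie mostly below 0, apart from Fancf and Fancl, and most of the abundant ones above 0.

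Recombination genes are known to be expressed mainly in dividing cells, so proliferation markers are given beside them. The 34 genes summed to 6146, 5173 and 5568 normalized reads in the knockout libraries, against 4621, 4798 and 4896 in the WT libraries, 1.18-fold as much on average by the authors' scaling. As shares of the total of normalized reads, without the 5 genes left out, they held 0.339, 0.286 and 0.306% in the knockout libraries. In the WT libraries they held 0.296, 0.313 and 0.318%, and the genotypes overlapped. Without Brca1 the sums were 4900.2, 4218 and 4607 in the knockout and 4246, 4390.3 and 4489 in WT, and the genotypes overlapped. The 28 proliferation markers summed to 21374, 21186 and 20655 in the knockout and 14808, 14387 and 14771 in WT, 1.44-fold as much, and their shares were 1.18, 1.17 and 1.13% in the knockout and 0.948, 0.938 and 0.959% in WT. Of them 14 were called higher and 5 lower. The most abundant were Top2a, with 4400.0, 4057 and 4641 in the knockout and 2653, 2544 and 2620.0 in WT, and Mki67, with 4297, 4201 and 3754 in the knockout and 2596, 2878 and 2848 in WT. Rrm1 and Mcm3 followed, 2.02-fold and 1.33-fold higher in the knockout. The markers called lower were Aurkb (2.28-fold), Ccnb2 (2.06-fold), Tk1 (2.04-fold), Birc5 (1.73-fold) and Mcm7 (1.51-fold). The part of proliferation in the rise of Brca1, Rad50 and Polq was not tested.

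A second list held 62 other genes of the same pathways, of which 61 passed the filter and Swsap1 did not. Of the 61 genes 4 were higher (6.56%) and 7 lower (11.5%), close to the shares of all tested genes. Fignl1, an ATPase that acts in recombination, had 555, 487 and 631 normalized reads in the knockout libraries and 327, 328 and 343 in the WT libraries, and rose 1.68-fold (log2 fold change 0.74, SE 0.11, adjusted p = 0.00340). Mdc1, which reads the phosphorylated histone at a break, rose 1.60-fold, and Cenpx, a histone-fold partner of FANCM, 2.52-fold. The genes that fell included Brcc3 and Babam1, of the complex that holds BRCA1 at ubiquitinated chromatin. Babam2, Uimc1 and Abraxas1 of the same complex were not called (log2 fold changes -0.02, -0.31 and -1.49, adjusted p = 0.955, 0.207 and 0.431). Brcc3, its deubiquitinase, had 9.39, 34.0 and 15.9 in the knockout and 85.0, 96.3 and 94.0 in WT, 4.65-fold lower (log2 fold change -2.34, SE 0.44, adjusted p = 0.00799). Babam1, a scaffold of the complex, had 41.6, 43.7 and 52.1 in the knockout and 98.7, 103 and 103 in WT, 2.22-fold lower (log2 fold change -1.14, SE 0.21, adjusted p = 0.00754). Mcm9, a helicase subunit that acts with MCM8 in recombination, fell 2.66-fold, Spidr, a scaffold that binds BLM, 1.96-fold, and Bap1, a deubiquitinase that binds BRCA1, 1.90-fold. Topbp1, which activates the ATR kinase, fell 1.65-fold, and Rev3l, the catalytic subunit of polymerase zeta, 1.57-fold. Among these 11 calls Fignl1 had the lowest adjusted p, 0.00340, and Mdc1 the highest, 0.0417. With limma and WT replicate 1 left out, 1 of the 61 genes was higher and 2 were lower, and with knockout replicate 1 left out, 4 were higher and 11 lower. Without WT replicate 2 limma called 2 higher and 0 lower, and without WT replicate 3 it called 1 higher and 0 lower, although 8 and 7 were lower at an unadjusted p under 0.05. With all libraries edgeR called 6 higher and 8 lower.

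Promoters of the called genes are shown for reference, since several genes of these pathways are known to be switched on with the cell cycle. CCAAT boxes, bound by NF-Y, E2F sites and the CHR element of cell cycle genes are common in such promoters. The letters searched, on both strands, were CCAAT for the first, TTTCCCGC or TTTGGCGC or TTTGCCGC or TTTCGCGC for the second, and TTTGAA or TTCGAA for the third, and none of these holds another. RefSeq promoters (GRCm38.p6, 250 bases before to 50 after the start) matched 25 of the 34 genes by symbol, with 28 windows, and Rad50 is not among them. CCAAT was in 60.7% of the 28 windows and in 37.4% of all 32851, an E2F site in 17.9% of the 28 and 2.26% of all, and a CHR element in 14.3% of the 28 and 19.2% of all. The stretches run 5′ to 3′ on the gene's strand, from 100 bases before the start to 20 after it, with matches in capitals. Brca1 (chr11:101551936-101552055, minus strand) has 1 CCAAT box, Fancf (chr7:51862248-51862367, minus strand) has 2, Polq (chr16:37011686-37011805, plus strand) has a CHR element across its start, and Rad51c (chr11:87404487-87404606, minus strand, the first of 2 start sites) has an E2F site just after it. In Fancl (chr11:26386984-26387103, plus strand) these letters are not in the stretch.
Brca1: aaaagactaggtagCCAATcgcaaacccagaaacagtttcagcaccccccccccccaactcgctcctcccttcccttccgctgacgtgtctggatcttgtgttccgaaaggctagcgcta
Fancf: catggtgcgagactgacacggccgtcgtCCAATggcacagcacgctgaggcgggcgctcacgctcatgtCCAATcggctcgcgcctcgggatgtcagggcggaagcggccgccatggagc
Polq: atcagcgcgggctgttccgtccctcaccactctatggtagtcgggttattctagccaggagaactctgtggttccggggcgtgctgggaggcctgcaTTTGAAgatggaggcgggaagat
Rad51c: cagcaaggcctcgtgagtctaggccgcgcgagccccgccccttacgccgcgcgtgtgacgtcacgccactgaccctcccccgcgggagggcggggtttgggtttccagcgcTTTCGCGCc
Fancl: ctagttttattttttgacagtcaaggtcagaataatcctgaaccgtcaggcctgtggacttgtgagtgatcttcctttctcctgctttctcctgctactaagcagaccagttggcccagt
An E2F site was found in the windows of Bard1, Brca2, Fancg and Rad51c, of which Rad51c was called lower and the others not called, while the windows of Brca1, Polq, Fancf and Fancl, all called higher, held none. These matches describe the letters in the windows and say nothing of whether a factor binds there.

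Reads cannot be assigned with certainty where genes overlap, because the sources used here do not say whether counting used the strand. Of the 34 genes 17 overlap another gene with reads, 12 of them a protein-coding gene. Fancf lies opposite Gas2, which had 8.81 ± 7.63 normalized reads in the knockout and 21.4 ± 3.77 in WT, lower where Fancf was higher. Fancl overlaps Vrk2 on the other strand, with 30.4 ± 27.5 in the knockout and 57.7 ± 2.25 in WT. Fancc overlaps Aopep, with 251 ± 61.1 in the knockout and 153 ± 14.4 in WT (SD, n = 3 each). Brca1, Rad50, Polq and Rad51c overlap no other gene with reads in the table.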

How the data were processed

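Ribosome footprints of 24 to 36 nt, per the labels' protocols, were sequenced in 6 libraries. The authors deposited 1 signal value per gene and library, which is a read count scaled by a library-wide size factor. This follows from the values, of which 99.98% of those above 0 were whole multiples of 1 read within 0.05 of a read. The genome build is GRCm39 per the submitters' processing notes, while aligner, counter and annotation stay not given in the sources used here. The deposited log2 fold changes and p-values come from the authors' comparison, whose test no source names. A floor of 3 reads served only as a reference for low levels, and values of 0 were not raised to it in any fit.

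Reads were recovered by dividing by the value of 1 read. Genes with a mean of at least 1 were fitted genome-wide with limma 3.58.1 in R 4.3.3 (log2(value + 1), genotype only, variance trend), leaving out 5 genes whose values were not whole reads of their own library. Alternatives were edgeR 4.0.16 and DESeq2 1.42.0 on recovered reads, limma-voom, other scalings, thinning, filters and pseudocounts, a replicate block and each library left out. Thinned libraries had equal totals and no other size factor, so thinning changed the scaling as well as the depth. Same-numbered libraries did not deviate together (correlations -0.0061, 0.012 and -0.0038), so the numbers were not taken as pairs. The edgeR test called 3213 of 10891 genes and limma 3628 of 17114. The procedure was tested on simulated data. Lengths are those of the deposited gene models, in place of the protein lengths first planned, which were not used here. The 34 genes and the other lists were chosen with earlier results of these data known, and genes were named in full where called or where the genotypes did not overlap at a mean of at least 10. For 1 of the other pathway genes that passed the test, values are not reported here. Figures were drawn with matplotlib 3.10.9.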

Additional observations from a re-analysis of the deposited data

How the results depend on the processing

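Across 19 alternatives Brca1 and Rad50 were called higher in all 19, Polq in 14, and Fancf and Fancl in 13 each. Rad51c was called lower in 8 of the 17 that tested it, and no call changed direction. Of the 34 genes 9 were higher with upper-quartile scaling, 2 with library totals and 2 with thinning to equal depth, against 5, and 2 to 6 with a library left out. The number lower was 4 with the replicate block, 4 with DESeq2, 6 with limma-voom, 2 with TMM scaling, 6 with library totals, 5 with thinning, 2 at a mean of at least 10, 0 with a pseudocount of 0.1 and 0 without a filter, against 1, and 0 to 3 with a library left out (at an unadjusted p under 0.05 limma gave 5 lower with the pseudocount, 6 without a filter and 1 to 9 with a library left out, and edgeR called 1 lower). The median log2 fold change of the 34 genes was 0.034 with upper-quartile scaling, -0.388 with library totals and -0.432 with thinning, against -0.16, where that of all genes shifted by 0.18, -0.22 and -0.17. DESeq2, cyclic loess and edgeR shifted that of all genes by 0.39, 0.17 and 0.12, while that of the 34 genes (33 with edgeR) was -0.14, -0.14 and -0.09. Of the other pathway genes 7, 2 and 2 were higher and 4, 13 and 11 lower with upper-quartile scaling, library totals and thinning, against 4 and 7, with 1 to 4 higher and 0 to 11 lower when a library was left out. Without a WT library limma called 1239 to 1449 of all genes, and without a knockout library 4447 to 4585, against 3628; the cause was not tested. A single knockout read is worth 1.34 to 1.62 normalized reads, which limits the precision of genes with few reads such as Rad51c and Xrcc2.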
